A study of Schizosaccharomyces pombe with 8 samples.

Results

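The comparison described here set the opi10- strain of the fission yeast Schizosaccharomyces pombe against the opi10+ strain after 1 h of recovery from heat shock.
It was chosen from the sample labels alone and takes 2 of the 8 arrays of the study, 1 of each strain.
The opi10- cells and the opi10+ cells had grown exponentially at 30C in Edinburgh minimal medium, had spent 1 h at 43C, and had then been returned to 30C for 1 h.
The other 6 arrays held the same strains before heat, at the end of the hour at 43C, and after 3 h of recovery.
Each array of the design, an Affymetrix yeast array, measured transcripts through biotinylated cRNA made by priming at their 3' ends.
The labels name the strains only by the state of opi10, give no strain background, marker or kind of lesion, and give no word on whether 1 culture per strain was sampled through time.
With 1 array per strain at each time, every difference below is a value without a replicate check or a test, and it compares these RNA samples only.
The arrays read RNA pooled from a culture, so fewer cells with a transcript and less transcript per cell cannot be told apart.

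Fission yeast opi10 belongs to the Hikeshi family of proteins.
The human member of this family carries HSP70 into the nucleus during heat stress.
HSP70 proteins bind unfolded stretches of other proteins, are driven by HSP40 partners and released by nucleotide exchange factors such as HSP110, and hand some clients to HSP90 or to chaperonins.
In eukaryotes heat shock factor switches on the genes of these chaperones, and their transcripts decline once the cells are back at their usual temperature.
The comparison at 1 h of recovery asks how transcript levels stand in the strains while that decline is under way.

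Levels are given as signals, the deposited array intensities after quantile normalization, which gives all 8 arrays the same distribution over S. pombe probe sets.
Differences are log2(signal + 16) of opi10- minus opi10+, so a positive value means a higher signal in opi10-, and 1 equals 2-fold.
Signals of different genes come from different probes and are not compared with each other.
The comparison covered 2895 genes measured above the level of the S. cerevisiae probe sets that the array also carries, of 2899 S. pombe genes named on it.
No probe set was paired with opi10 by name, so the strain labels could not be checked on the gene itself.
Before normalization the median intensity of these genes was 1028 in opi10- and 991.6 in opi10+.
Across the 2895 genes the log2 values of the 1 h arrays correlated with r = 0.994, a description over genes, which are not replicates.
The differences had a median of 0.01, and the central 95% of them lay between -0.40 and 0.34.
Their SD was 0.18, against 0.25 before heat, 0.22 at 43C and 0.25 at 3 h, so the 2 arrays were most alike at 1 h. The deposited values of 9 array control probe sets also differed least then, by -0.05 to 0.08. Their range was -0.21 to 0.01 before heat, -0.33 to 0.04 at 43C and -0.12 to 0.185 at 3 h. Whether the strains themselves were nearest at 1 h was not tested.
For scale within the pair of arrays, 14 genes had several probe sets, whose differences lay a median of 0.08 and at most 0.59 apart, the largest gap being that of tlh2, named after its value was seen.

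Few genes differed by a large factor at 1 h, and most of those lower in opi10- were genes with a higher signal at 43C than before heat.
Past 2-fold stood 3 genes, which is 0.104% of the 2895: ppk31 and mel1 were higher in opi10- (0.0691%) and mde6 was lower (0.0345%).
The same count was 16 genes before heat, 13 at 43C and 17 at 3 h.
Past 1.5-fold stood 39 genes (1.35%), of which 15 were higher (0.518%) and 24 lower (0.829%) in opi10-.
Of the 24 lower genes, 16 had been at least 2-fold above their level before heat when the cells were at 43C, on the mean of the strains, as against 6 of the 15 higher genes and 343 of all 2895 (11.8%).
Over all genes, 52.6% lay above 0 and 46.8% below it.

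A set of 3 genes differed by at least 1.5-fold in the same direction at 43C, at 1 h and at 3 h, and by less than that before heat: ppk31, ima1 and mde6.
The protein kinase gene ppk31 had signals of 123, 1627, 424 and 145 in opi10- in the order before heat, 43C, 1 h and 3 h, against 134, 726, 131 and 74.0 in opi10+.
Both strains carried more ppk31 transcript at 43C than before, and at 1 h only the opi10+ signal was back near its starting value.
The difference at 1 h was 1.58, the highest of all genes compared, with 1.15 at 43C and 0.83 at 3 h.
Transcripts of ima1, which encodes a protein of the inner nuclear membrane, had signals of 394, 939, 565 and 485 in opi10- and 429.7, 1947, 1143 and 1039 in opi10+ at the same times.
From 43C onwards the opi10- signal of ima1 was about the same fraction of the opi10+ signal at every time, with differences of -1.04, -0.997 and -1.08.
At 1 h ima1 missed the 2-fold threshold only in the third decimal place.
The gene mde6, known as a target of the meiotic transcription factor Mei4, had signals of 164, 39.8, 102 and 325 in opi10- and 168, 75.6, 305 and 616 in opi10+.
In both strains mde6 was lower at 43C than before and higher again during recovery, and opi10- was the lower strain at all 4 times.
Its difference at 1 h, -1.44, was the lowest of all genes compared.

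The 12 lowest genes among those with a signal of at least 100 in one strain were mde6, ima1, otu1, mug35, sap1, gal10, pta1, med7, gwt1, sti1, krp1 and gld1.
On the mean of the strains, 9 of these 12 had been at least 2-fold above their starting level at 43C.
The signal of otu1, a gene of the OTU deubiquitinase family whose probe set was matched by symbol alone, was 795 in opi10- and 1528 in opi10+ at 1 h, a difference of -0.93.
At 43C the strains had been close, with 5378 in opi10- and 5842 in opi10+, and at 3 h they were close again, with 887 in opi10- and 841 in opi10+.
For mug35, named for its induction in meiosis, the signal at 1 h was 1304 in opi10- and 2495 in opi10+ (-0.93), against 8940.1 in opi10- and 9475 in opi10+ at 43C.
For otu1 and mug35 the gap at 1 h was thus far wider than at 43C. The 43C signals of mug35, and of pta1 below, were high on the arrays' range, where differences may be understated.
At 3 h mug35 was higher in opi10-, with 2190.0 in opi10- and 1619.8 in opi10+ (0.43).
For sap1, which encodes an essential DNA-binding protein of the mating-type region, the signal was 213 in opi10- and 414 in opi10+ (-0.91).
The cleavage and polyadenylation factor gene pta1 had 2039 in opi10- and 3606 in opi10+ (-0.82), with 8107 in opi10- and 8673 in opi10+ at 43C (the difference there was -0.10).
The GPI anchor synthesis gene gwt1 had 1090.4 in opi10- and 1879 in opi10+ (-0.78).
The Mediator subunit gene med7 had 147 in opi10- and 263 in opi10+ (-0.78), and gal10, the UDP-glucose epimerase gene, had 119 in opi10- and 224 in opi10+ (-0.83).
The kexin-related protease gene krp1 stood at -0.73, the glycerol dehydrogenase gene gld1 at -0.72, and the HSP90 co-chaperone gene sti1 at -0.74.
The median difference of the 12 was -0.06 before heat, -0.38 at 43C, -0.83 at 1 h and -0.32 at 3 h, of which only the value at 1 h was used to choose them.
Lower in opi10- were 8 of them before heat, 11 at 43C and 8 at 3 h. Of all 2895 genes, 1493 had the same sign before heat as at 1 h, 1738 at 43C and 1707 at 3 h.

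**Figure D1:**
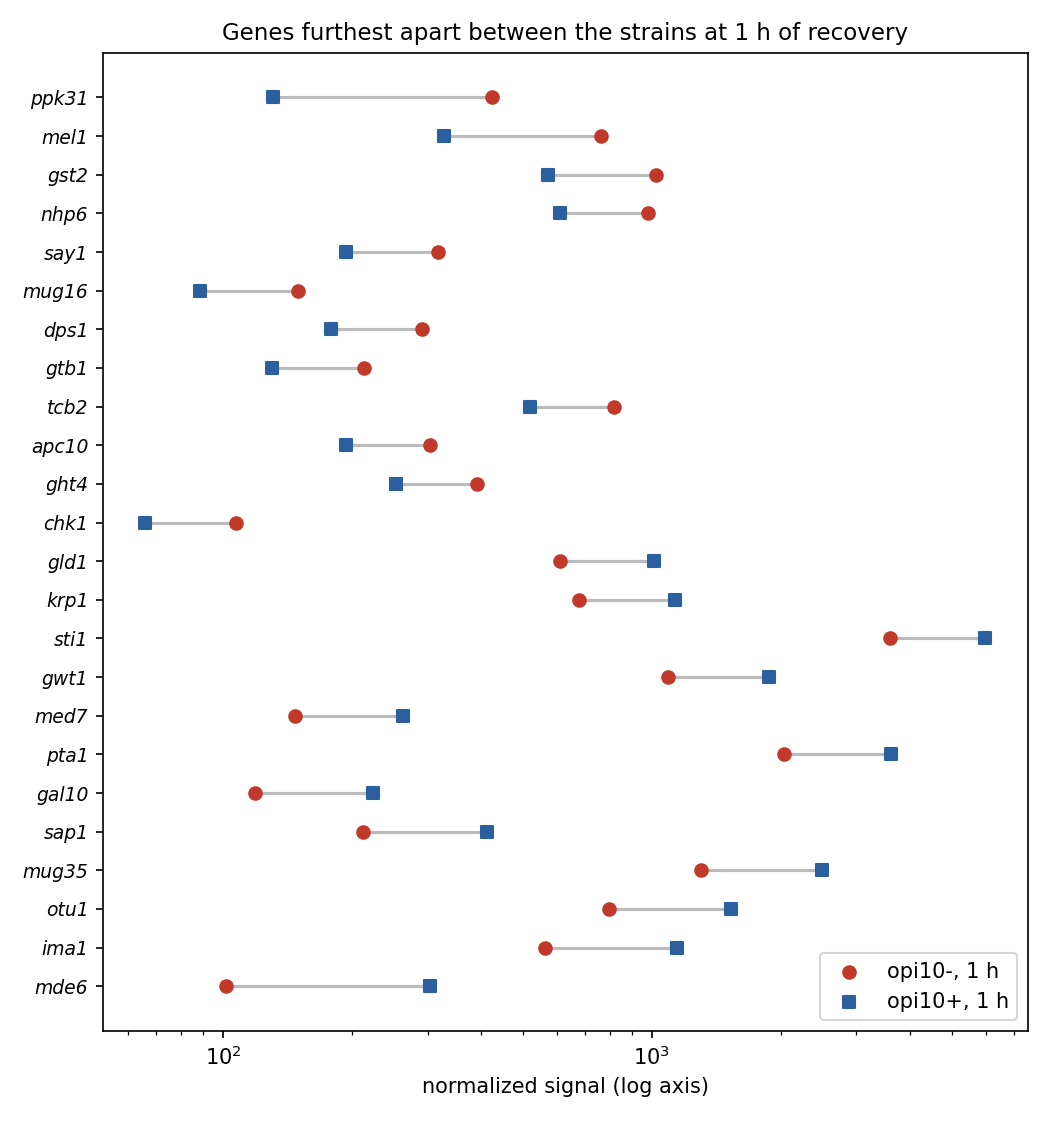
Normalized signal at 1 h of recovery (log axis) of the 12 highest and 12 lowest genes, with 1 point for the opi10- array and 1 for the opi10+ array and no error bars, since each strain had 1 array. The points of ppk31 and of mde6 lie farthest apart, and most other pairs differ by less than 2-fold.

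The 12 highest genes by the same rule were ppk31, mel1, gst2, nhp6, say1, mug16, dps1, gtb1, tcb2, apc10, ght4 and chk1.
The alpha-galactosidase gene mel1 had signals of 28.1, 796, 762 and 1536 in opi10- in the order before heat, 43C, 1 h and 3 h, against 68.1, 657, 328 and 953 in opi10+, and its difference at 1 h was 1.18.
In opi10- the mel1 signal at 1 h was close to that at 43C, while in opi10+ it was lower than at 43C.
The glutathione transferase gene gst2 had 1025 in opi10- and 574 in opi10+ at 1 h (0.82), and 3013 in opi10- and 2011 in opi10+ at 3 h.
Before heat and at 43C the strains had differed little at gst2, by 0.14 and 0.04.
The chromatin protein gene nhp6 had 978 in opi10- and 609 in opi10+ at 1 h (0.67), and tcb2, a tricalbin family gene, had 817 in opi10- and 519 in opi10+ (0.64).
The hexose transporter gene ght4 had 392.3 in opi10- and 252.8 in opi10+ (0.60), and apc10, a subunit gene of the anaphase promoting complex, had 303 in opi10- and 193 in opi10+ (0.61).
Among the remaining genes, say1 differed by 0.67, mug16 by 0.66, the ubiquinone side-chain gene dps1 by 0.66, the gamma-tubulin gene gtb1 by 0.65 and the checkpoint kinase gene chk1 by 0.59.
Heat had placed 6 of the 12 at least 2-fold above and 2 at least 2-fold below their starting level at 43C.
The median difference of the 12 was -0.04 before heat, 0.06 at 43C, 0.66 at 1 h and 0.30 at 3 h. Of the 12 the number higher in opi10- was 6 before heat, 9 at 43C and 9 at 3 h. The counts over all genes given with the lowest 12 apply here too.

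Among the genes of the HSP70 cycle, the strains were level at 43C and apart at 1 h for several members.
In the list of HSP70 and HSP110 genes, 5 of 6 measured members were lower in opi10- at 1 h and 1 was higher, with a median of -0.22, against 0.01 over all genes.
The heat-inducible cytosolic HSP70 gene ssa1 had signals of 208, 9951, 4462 and 2782 in opi10- in the order before heat, 43C, 1 h and 3 h, against 457, 10371, 6452 and 3618 in opi10+.
Thus opi10- had less ssa1 signal before heat, nearly the same at 43C (-0.06), and less again at 1 h (-0.53) and 3 h (-0.38).
Measured from each strain's own level before heat, the ssa1 value at 1 h was 4.32 log2 units higher in opi10- and 3.77 in opi10+, an order opposite to that of the levels.
The HSP110 gene pss1 had 7435 in opi10- and 9753 in opi10+ at 1 h (-0.39), against 10891 in opi10- and 10949 in opi10+ at 43C.
For bip1, the HSP70 of the endoplasmic reticulum, the signals at 1 h were 5621 in opi10- and 6763 in opi10+ (-0.27), and the gap at 3 h was -0.85, with 2897 in opi10- and 5224 in opi10+.
The mitochondrial HSP70 gene ssc1 differed by -0.18, and the constitutive cytosolic genes ssa2 and sks2 by -0.09 and 0.04.
At 43C all 6 genes lay between -0.09 and 0.07.
The gene of the heat shock transcription factor, hsf1, had 1718 in opi10- and 1681 in opi10+ at 1 h, a difference of 0.03.

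Partners of HSP70 lay on both sides of 0.
Of 9 measured co-chaperone genes, 4 were lower and 5 higher in opi10- at 1 h, with a median of 0.01.
The lower ones were led by 3 HSP40 genes, mdj1, mas5 and psi1.
The mitochondrial HSP40 gene mdj1 had 1430.4 in opi10- and 2148 in opi10+ at 1 h (-0.58), and it was already lower at 43C (-0.31).
The main cytosolic HSP40 gene mas5 had 4231 in opi10- and 5953 in opi10+ (-0.49), against 9589 in opi10- and 10156 in opi10+ at 43C.
The HSP40 gene psi1 had 3341 in opi10- and 4618 in opi10+ (-0.46), with a difference of -0.20 at 43C.
All 3 were at least 2-fold above their starting level at 43C.
The 4th lower gene, named after its value was seen, was cwf23, a J-domain protein of the spliceosome, at -0.28, and the 5 higher genes lay between 0.01 and 0.16.
In the HSP90 list 6 of 10 genes were lower and 4 higher in opi10-, with a median of -0.15.
The list also holds hsf1, and it holds rtr1 and sgt1, symbols that in fission yeast stand for genes outside the HSP90 system.
Without rtr1 and sgt1 the median was -0.33, and 5 of 8 genes were lower. This recount was made after the values were seen, and the 8 genes still include hsf1.
The gene sti1, whose product links HSP70 to HSP90, had 2787, 9687, 3593 and 2079 in opi10- in the order before heat, 43C, 1 h and 3 h, against 2447, 9643, 5998 and 2629 in opi10+.
Its signals at 43C differed by 0.01 and at 1 h by -0.74.
The HSP90 co-chaperone gene cns1 had 621 in opi10- and 858 in opi10+ at 1 h (-0.46), and wos2, of the p23 family, had 4268 in opi10- and 5547 in opi10+ (-0.38).
Other members of the list, named after their values were seen, were hsp90 itself, with 6257 in opi10- and 7686 in opi10+ (-0.30), and the kinase-client co-chaperone gene cdc37, with 662 in opi10- and 860.0 in opi10+ (-0.37).
The gene wis2, a cyclophilin 40 family member outside the list and likewise named after its values were seen, had 6705 in opi10- and 10549 in opi10+ at 1 h (-0.65).
At 43C wis2 was the brightest gene of both arrays, at 13888, so its difference there is limited by the normalization.

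The mitochondrial chaperonin genes were lower in opi10-, and the cytosolic ones lay near 0.
Of 12 genes of chaperonins and of prefoldin, which delivers clients to the cytosolic chaperonin, 9 were higher and 3 lower in opi10- at 1 h, with a median of 0.06.
The mitochondrial pair was lower: mcp60, the HSP60 gene, had 5842 in opi10- and 7741 in opi10+ (-0.41), and its partner hsp10 had 5109 in opi10- and 6705 in opi10+ (-0.39).
At 43C mcp60 had 9505 in opi10- and 9565 in opi10+, and hsp10 had 10949 in opi10- and 10792 in opi10+.
The subunits of the cytosolic chaperonin CCT lay between -0.02 and 0.13, with the highest value at cct7 (0.13).
The small heat shock protein gene hsp16 had 7844 in opi10- and 7477 in opi10+ (0.07). For hsp9 the signals were 9589 in opi10- and 9877 in opi10+ (-0.04), so neither gene showed the gap of ssa1 or sti1. From 43C to 3 h the signals of hsp16 stayed between 6887 and 8302 and those of hsp9 between 9589 and 9909. A gap at 1 h may therefore be understated for both.
Chaperone signals at 43C reached the top of the arrays' range without any saturation call to go by, and differences of the brightest genes may be understated.

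**Figure D2:**
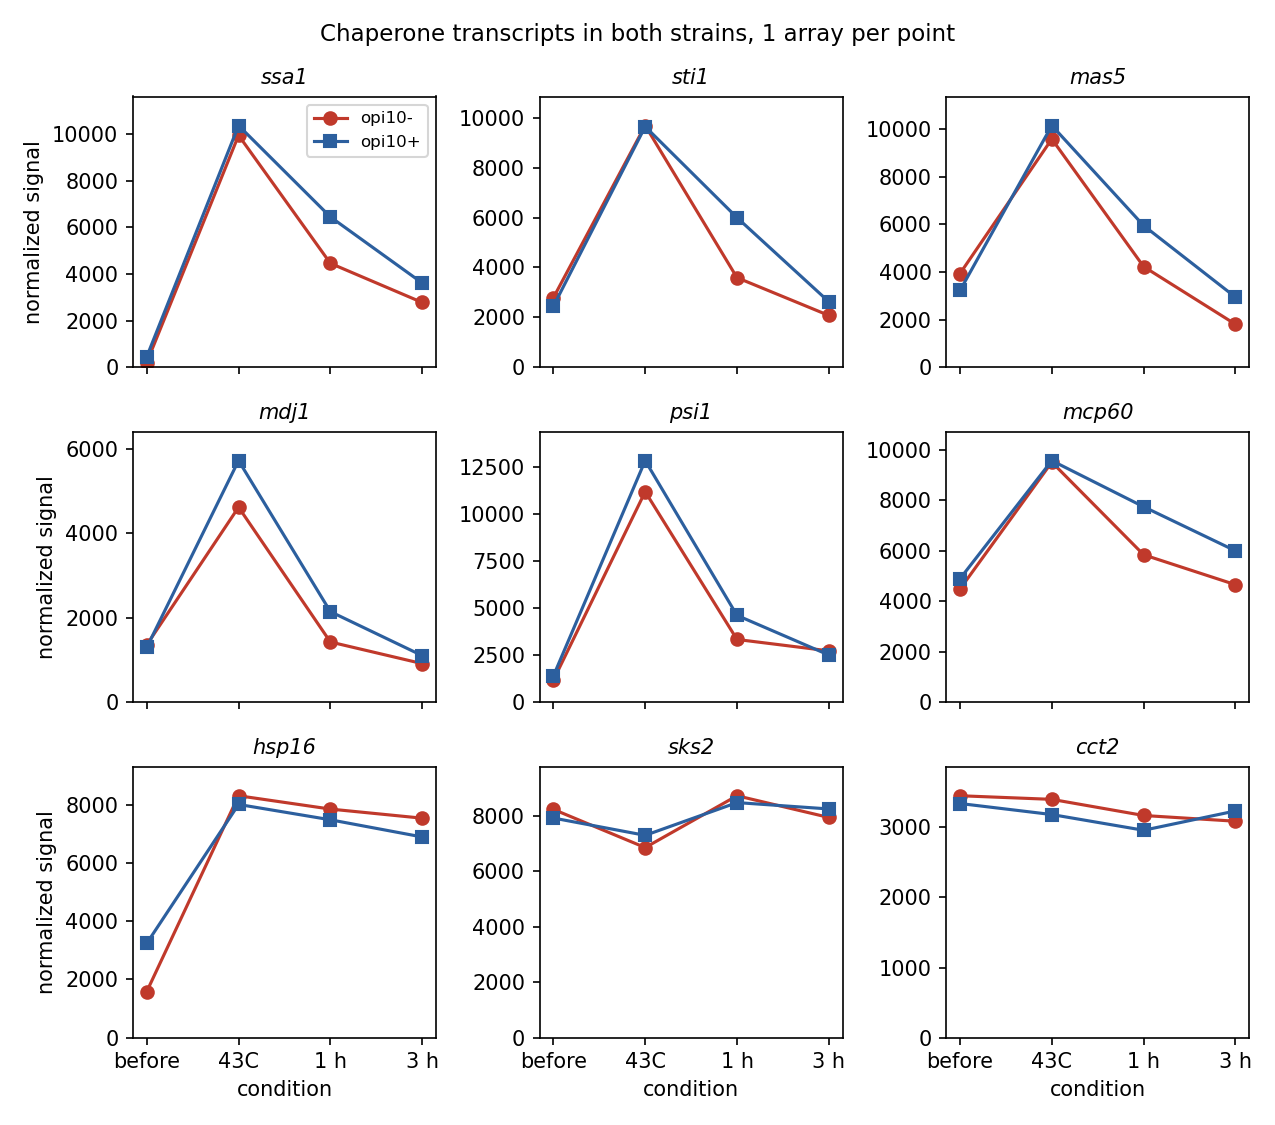
Normalized signal (linear axis from 0) of chaperone genes by time of sampling (before heat, 43C, 1 h and 3 h), with 1 line for opi10- and 1 for opi10+ and 1 array at each point. The lines of ssa1, mas5 and sti1 lie close together at 43C and apart at 1 h, where opi10- is lower, while at 1 h opi10- lies slightly above opi10+ for hsp16, sks2 and cct2.

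Over all chaperone lists, and split after the values were seen, 36 genes (all measured members but hsf1, rtr1 and sgt1) were grouped by their heat response, which the 1 h arrays did not enter.
Of 13 genes at least 2-fold above their starting level at 43C, 12 (92.3%) were lower in opi10- at 1 h, hsp16 being the exception. Over all genes the share was 46.8%. Over the 311 other genes that far above their starting level at 43C, outside the chaperone and core stress lists, it was 69.8%.
The median difference of the 13 was 0.11 before heat, -0.01 at 43C, -0.39 at 1 h and -0.31 at 3 h, and 4, 8, 12 and 10 of them were lower in opi10- at these times.
The change from 43C to 1 h had a median of -1.15 in opi10- and -0.69 in opi10+, and was the more negative in opi10- for 12 of the 13. Several of the 13 had 43C signals near the top of the arrays' range, so their differences at 43C may be understated. How far this affects the changes from 43C was not tested.
Set against the level before heat, 3 of the 13 were still at least 1.5-fold higher at 1 h in opi10-, and 10 were in opi10+. Of the 311 other genes, 139 were in opi10- and 135 were in opi10+. Among the 13, mas5 stood 0.10 above its starting level in opi10- and 0.88 in opi10+, and hsp10 0.08 in opi10- and 0.57 in opi10+.
The value of sti1 was 0.36 in opi10- and 1.29 in opi10+, and that of mdj1 was 0.07 in opi10- and 0.72 in opi10+.
The other 23 chaperone genes, without such a heat response, had a median of 0.06 at 1 h, with 6 lower and 17 higher in opi10-.

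Over all genes, the direction of the 1 h difference also went with the heat response, but most genes with a higher signal at 43C were lower in opi10- before recovery as well.
Genes were put in classes, made after the values were seen, by their change from before heat to 43C (mean of the strains).
Of 77 genes at least 4-fold higher at 43C than before, 62 (80.5%) were lower in opi10- at 1 h, with a median of -0.26 and quartiles of -0.47 and -0.06.
The median of the 77 was -0.16 before heat and -0.11 at 43C, with 54 and 59 of them lower, so most of them were lower before recovery too.
Of 266 genes higher by 2 to 4-fold, 179 (67.3%) were lower, with a median of -0.10, against -0.07 before heat and -0.05 at 43C.
Leaving out chaperone and core stress list genes, the other 311 genes at least 2-fold higher at 43C had medians of -0.09 before heat, -0.07 at 43C and -0.11 at 1 h. Lower in opi10- at these times were 184, 205 and 217 of them.
Relative to the level before heat, these 311 stood at a median of 0.50 in opi10- and 0.51 in opi10+ at 1 h, which is about level.
The 2221 genes within 2-fold had a median of 0.01, and 46.5% of them were lower.
On the other side, 217 of 292 genes (74.3%) that were 2 to 4-fold lower at 43C were higher in opi10- at 1 h, with a median of 0.09, as were 31 of 39 genes (79.5%) that were at least 4-fold lower, with a median of 0.14.
The 292 had medians of 0.07 before heat and 0.06 at 43C, and the 39 had 0.05 before heat and -0.13 at 43C.
In the 2 outer classes the change from 43C to 1 h was larger in opi10-, with medians of -1.89 in opi10- and -1.73 in opi10+ for the 77 genes, and of 1.64 in opi10- and 1.48 in opi10+ for the 39.
For the 292 genes it was slightly smaller in opi10-, with medians of 0.88 in opi10- and 0.90 in opi10+.
At 3 h the median of the 77 was -0.10, with 44 lower in opi10-, and that of the 39 was 0.21.
Across the 2895 genes the heat response and the 1 h difference correlated with r = -0.35 (Spearman's rho = -0.37), a description over genes, with no array common to both measures.
Among the 77, genes not named above and chosen after their values were seen include mfs2 (1508 in opi10- and 2427 in opi10+, -0.68), the zinc finger protein gene zpr1 (2432 in opi10- and 3671 in opi10+, -0.59) and ubx3, a UBX domain gene (1616 in opi10- and 2383 in opi10+, -0.56).
At 43C zpr1 and ubx3 had differed by -0.11 and -0.07.
The exceptions, higher in opi10-, included ppk31, mel1, say1 and tcb2.

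**Figure D3:**
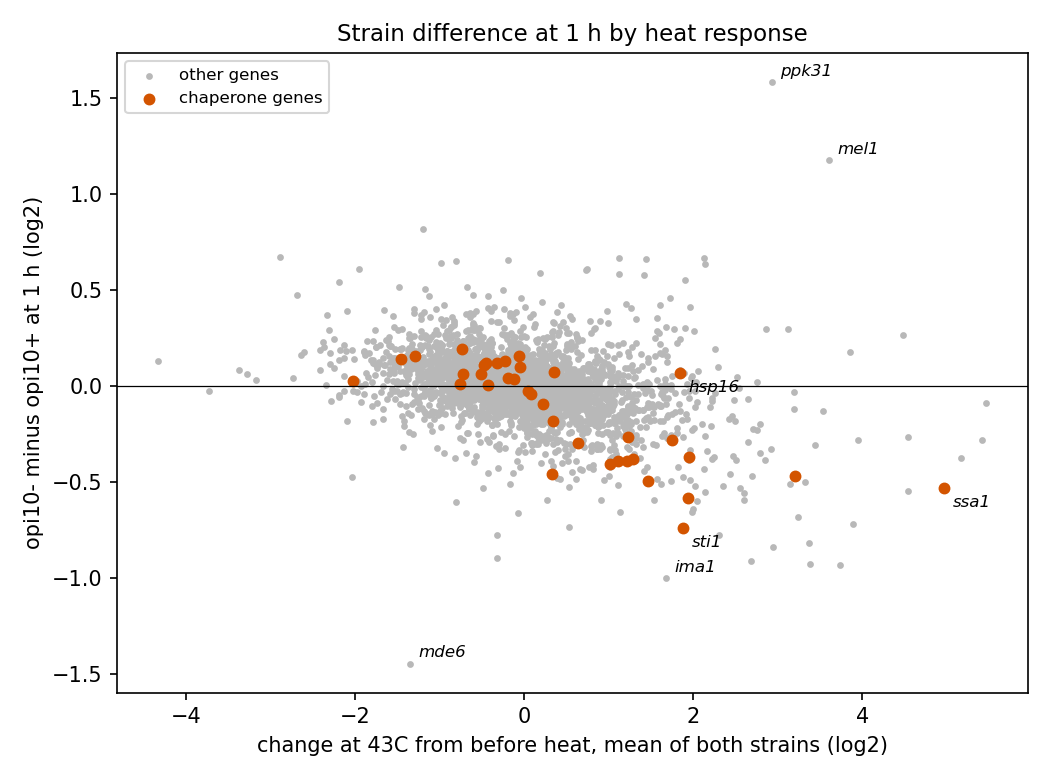
Difference at 1 h, opi10- minus opi10+ (log2), against the heat response, 43C minus before heat (log2, mean of the strains), with 1 point per gene and chaperone genes marked. Genes far to the right lie mostly below 0 and genes far to the left mostly above it, while ppk31 and mel1 stand high on the right.

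Genes of the general stress response had medians nearer to 0 at 1 h than the heat-raised chaperones, although many of them differed before heat.
Among 19 genes of the core stress list, chaperones left out, at least 2-fold above their starting level at 43C, 12 were lower in opi10- at 1 h. Their median was -0.09, while before heat it had been -0.90 with 18 of the 19 lower. Set against the level before heat, 14 of the 19 were at least 1.5-fold higher at 1 h in opi10-, and 6 were in opi10+. Of the 311 other heat-raised genes, 139 were in opi10- and 135 were in opi10+. For the 19 the medians of the change from before heat were 0.92 in opi10- and 0.28 in opi10+. That order is opposite to that of the heat-raised chaperones.
In the core stress list 26 of 46 genes were lower, with a median of -0.04 at 1 h and -0.48 before heat. In the list for the pathway of the stress kinase Sty1, 15 of 23 were lower at 1 h, with a median of -0.08. The Sty1 list median was -0.12 before heat and -0.11 at 43C.
Autophagy genes had a median of 0.05 at 1 h, 14 of 23 being higher, and of -0.30 before heat.
Outside the chaperone lists, the medians of the 39 lists with at least 5 members lay between -0.12 and 0.12 at 1 h.
The highest was that of 8 hexose transporters, among them ght4, and the lowest that of 14 subtelomeric and repeat genes. Their medians before heat were 0.03 and -0.32, and at 43C they were 0.13 and -0.05, in the same order.
Genes of mitochondrial energy metabolism and of mitochondrial translation were mostly slightly higher in opi10- at 1 h. These were 43 of 55 respiratory chain genes (median 0.08), 31 of 39 mitochondrial ribosome genes (median 0.10) and 13 of 16 citric acid cycle genes (median 0.09). Over all genes 52.6% were higher and 46.8% lower. Before heat the medians of these lists were 0.03, 0.17 and -0.10, in the same order. At 43C they were 0.02, 0.07 and -0.08.
Of 119 cytosolic ribosomal protein genes, 89 were higher and 25 lower, with a median of 0.03, and of 30 sterol synthesis genes 22 were higher, with a median of 0.07.
Histone genes had a median of -0.09, 10 of 12 being lower, and mating genes one of -0.04, 27 of 39 being lower. Before heat the histone and mating medians were -0.09 and 0.05, and at 43C they were -0.01 and -0.11.
The sign of these named lists' medians at 1 h was the same on each scale tried. For 17 of all 44 lists it was not, with a median of at most 0.04 in size, the HSP70 co-chaperones included.

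**Figure D4:**
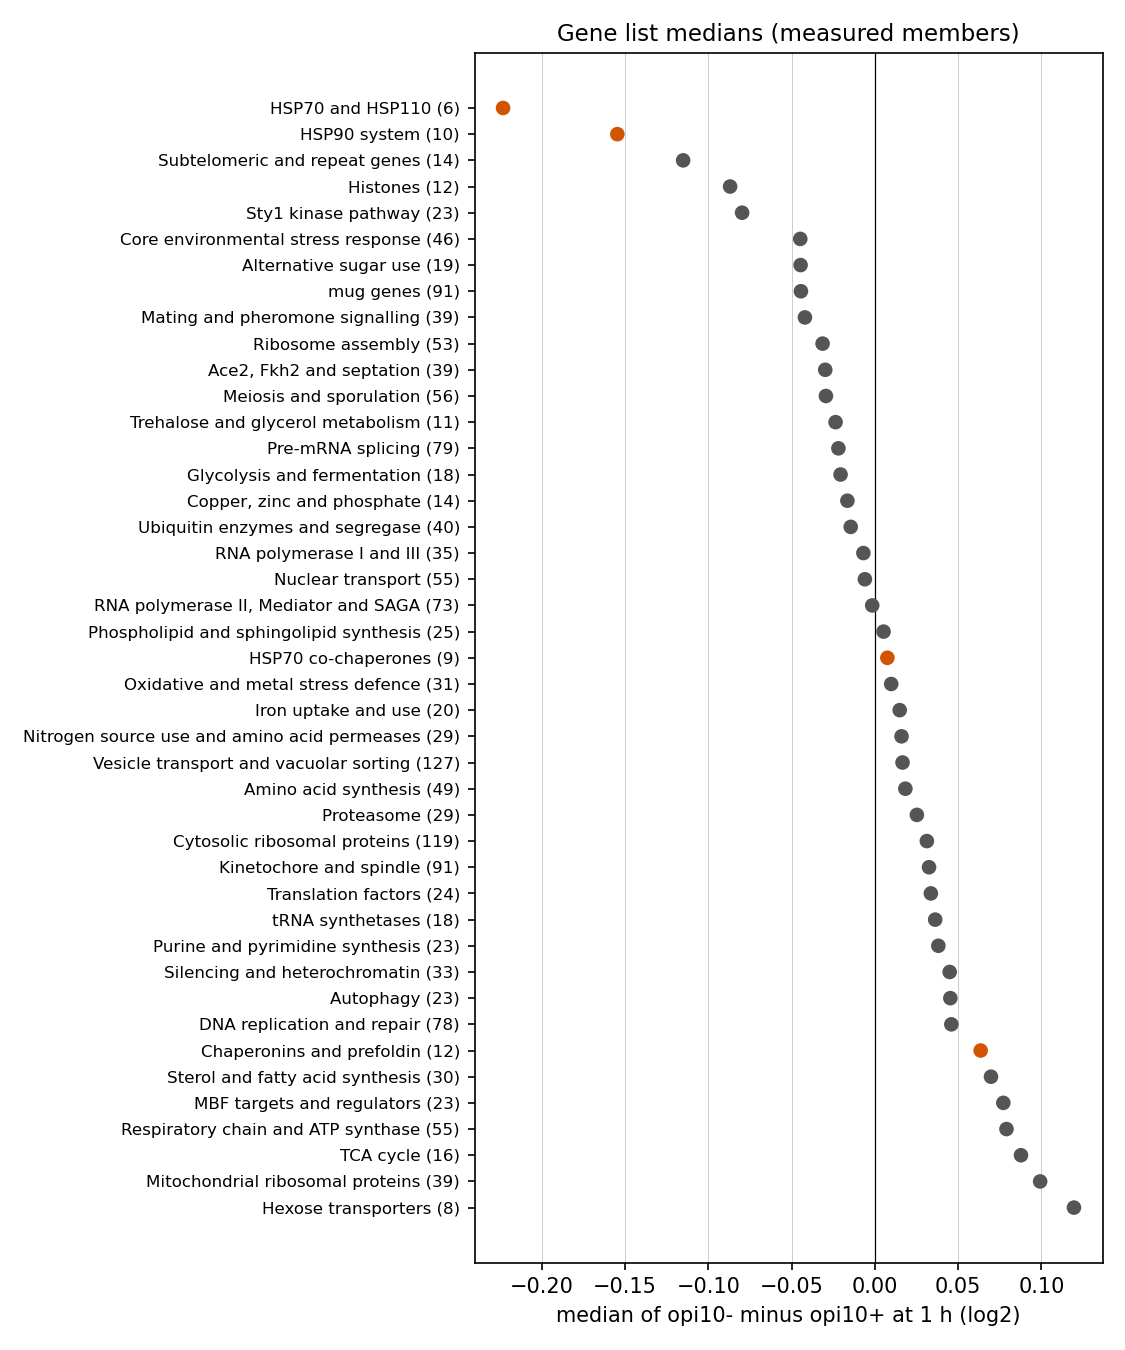
Median difference at 1 h, opi10- minus opi10+ (log2), of each gene list with at least 5 measured members, with 1 point per list, the number of members in brackets and the chaperone lists in orange. The HSP70 and HSP110 list has the lowest median, -0.22, and the other lists outside the HSP90 system lie between -0.12 and 0.12.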

How the data were processed

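The deposited table held intensity values on a linear scale for 10928 probe sets of an Affymetrix yeast array, made by the authors. The sources used here give neither the summary method of the probes nor a scaling of the arrays. Per the labels' protocols, extraction used phenol and chloroform, and biotinylated cRNA was made with a 3' in vitro transcription kit. No batch, scan time or genome build is given, so no coordinates or sequences are printed.

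The platform annotation gave 1 S. pombe gene for 2917 of them. Symbols were brought up to the ASM294v3 gene table by Entrez identifier, or for 3 probe sets by symbol alone. They stood for 2899 genes. Another 5177 had no gene and are unnamed here. Values were quantile normalized over the S. pombe probe sets of the 8 arrays and transformed as log2(value + 16), which understates differences of dim genes. The brightest probe set was used for a gene with several. Genes with a mean signal over 5.72 were kept, 2895 in all. That floor is the 75th percentile over 2598 probe sets of S. cerevisiae. The number of arrays, 1 per strain and time, limits the precision. No test was run at this number of arrays, and differences are counted past 2-fold and 1.5-fold.

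Named genes are the 12 highest and 12 lowest with a signal of at least 100 on 1 of the 1 h arrays, all measured members of the HSP70 and HSP110 list, hsf1, and the 3 largest differences of each described list. Lists described by gene were the chaperone lists and any of at least 5 members whose median lay 0.2 or more from that of all genes, and any other gene named for its value is marked as chosen after its values were seen. The members and the 44 gene lists were chosen with earlier results of these data known. The calculations used Python 3.11.15 with numpy 2.4.6 and pandas 2.3.3 and were tested on simulated data. Alternatives were the deposited scale, centring on genes other than ribosomal protein genes, quantile normalization of the 1 h arrays alone, pseudocounts of 1 and 64, the filter left out or moved to the 95th percentile, and the mean of all probe sets of a gene.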

Additional observations from a re-analysis of the deposited data

Results flagged for a closer look

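The difference of mel1 was 1.18 at 1 h and -0.93 before heat, that of tcb2 was 0.64 at 1 h and -1.13 before heat, and that of gal10 was -0.83 at 1 h and 0.63 at 3 h. They are given here because, among the 24 highest and lowest genes, these 3 stood at least 1.5-fold apart in opposite directions at different times. Each is 1 array against 1 array, and the change of direction was not tested.

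Among the 5177 probe sets without a gene in the annotation, which the comparison did not use, 1945 had a signal of at least 100 on 1 of the 1 h arrays. Of these, 5 were at least 2-fold higher and 6 at least 2-fold lower in opi10-. Together they are 0.566% of the 1945, against 0.104% past 2-fold among the 2895 genes compared. The lowest was 1772771_at, with a difference of -4.81 and deposited intensities of 0.535 in opi10- and 448 in opi10+. It was as far apart at the other times, by -4.97 before heat, -6.08 at 43C and -5.58 at 3 h, so its difference is not particular to 1 h. The opi10- value at 1 h lies below the floor taken from the S. cerevisiae probe sets, so the size of that difference depends on the pseudocount. Another lower probe set, 1779357_at, named after its value was seen, was far above that floor in both strains. It had intensities of 741.6 in opi10- and 3787 in opi10+ at 1 h (-2.33). Its differences at the other times were -2.03 before heat, -1.30 at 43C and -1.69 at 3 h. The highest was 1769944_at, with a difference of 2.00 and intensities of 214.8 in opi10- and 41.7 in opi10+. Its differences at the other times were 0.24 before heat, 1.37 at 43C and 1.45 at 3 h. The genes behind these probe sets are not named in the sources used here.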

How the results depend on the processing

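No paired analysis was possible because each strain had 1 array at 1 h. With a pseudocount of 1, 5 genes were at least 2-fold higher and 5 at least 2-fold lower in opi10-, and with a pseudocount of 64 the counts past 1.5-fold were 5 higher and 15 lower. On the deposited scale 15 genes were past 1.5-fold higher and 16 lower. The median of the HSP90 list was -0.33 without rtr1 and sgt1, an alternative chosen after seeing the data. In the other alternatives the counts past each fold stayed within 1.5 times those reported. The median of the HSP70 and HSP110 list lay between -0.26 and -0.21, and that of the genes at least 4-fold higher at 43C between -0.32 and -0.21. None of the 24 highest and lowest genes changed sign. Of 42 other genes followed through the alternatives, mostly chaperone list members and some without a value printed above, 4 did. All 4 lay within 0.05 of 0 in the main processing. Genes such as mfs2, ubr1, vps24, hri1, amt3 and the neighbours of opi10 were not followed in this way. With a pseudocount of 64 the difference of ppk31 was 1.33 and that of mde6 -1.15. Differences of dim genes are the least certain, since the SD over genes was 0.23 in the dimmest of 4 equal groups of genes and 0.15 in the brightest.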

Other observations

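The nearest measured genes on either side of opi10 in the order of the ASM294v3 gene table, chosen by position, gave no common direction at 1 h. Genes without a measured probe set were passed over, so that sfc6 and his5 are 1 step from opi10, dbp7 is 2 and skb1 is 5. The signal of sfc6 was 299 in opi10- and 386 in opi10+ (a difference of -0.35), and that of dbp7 was 810.4 in opi10- and 940.4 in opi10+ (-0.21). On the other side, his5 had 3360.1 in opi10- and 2814 in opi10+ (0.25), and skb1 had 1607 in opi10- and 1568 in opi10+ (0.04).

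Several heat-raised genes with roles outside protein folding were also lower in opi10- at 1 h and are given here after their values were seen. The ubiquitin ligase gene ubr1 had 1987 in opi10- and 2682 in opi10+ (-0.43), vps24, of the ESCRT-III complex, had 557 in opi10- and 777 in opi10+ (-0.47), and the eIF2-alpha kinase gene hri1 had 278 in opi10- and 408 in opi10+ (-0.53). The ammonium transporter gene amt3 had 1111 in opi10- and 1636 in opi10+ (-0.55), and it had differed by nearly as much at 43C (-0.53).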
